A study of Arabidopsis thaliana with 4 samples.

Results

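Within the wild type, 51 nuclear genes known by a locus code alone stood at least 2-fold higher in replicate 1 than in replicate 2. The OsRR6ox replicates of these genes lay less than 2-fold apart. These genes are the subject here. They are 51 of 11933 locus-coded probe sets and of 22746 probe sets tested. Each was chosen because wild type replicate 1 minus replicate 2 was 1 or more on the log2 scale, the OsRR6ox arrays lay less than 1 apart, and the value ranges of the genotypes overlapped or were less than 0.8 apart. The 3 root peroxidase genes AT3G01190, AT5G17820 and AT4G11290 were left out beforehand, and none of them met these limits. The difference between the wild type arrays therefore describes the genes and is not a finding, and it carries no test, because 1 array stands on each side.

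Transcript levels were measured on 4 Affymetrix ATH1 arrays, 2 from Col-0 wild type and 2 from the transgenic line OsRR6ox. All RNA came from whole seedlings aged 10 days, grown on 1/2MS medium in a cycle of long light and short dark phases, with no treatment before harvest. The transgenic seedlings over-express OsRR6, a response regulator of rice. The sources used here do not give the promoter that drives the transgene, the number of transgenic lines or whether replicates were grown together.

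Of the 51 genes, 10 were placed, after their values were seen, in families whose proteins are secreted or act at the plant cell wall. Class III peroxidases are secreted haem enzymes that use hydrogen peroxide to cross-link wall polymers and lignin precursors or to produce reactive oxygen. Berberine bridge enzyme-like flavoproteins oxidise small molecules, among them wall-derived sugars and alcohols. Many genes of these families are known in Arabidopsis for transcription that follows wounding, pathogens, nutrient supply and root growth. The reference table used here gives such genes a locus, a position and a biotype only, so the family named beside a locus is background knowledge, and 12 of the 51 are given no role.

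The arrays had medians of 6.71 to 6.81 on the log2 scale. Some controls differed between the wild type arrays. The 42 spike-in controls averaged 8.80 on wild type replicate 1 and 9.14 on replicate 2, against 8.45 and 8.43 on the OsRR6ox arrays. The 25S ribosomal RNA control was at 7.41 and 9.94 on the wild type arrays and at 6.45 and 7.41 on the others. The ubiquitin control, as 3′ signal minus 5′ signal, differed between genotypes instead. It was at 1.83 and 1.77 on the wild type arrays and at 1.21 and 1.25 on the OsRR6ox arrays. The part of these controls in the differences described here was not tested.

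Wild type replicate 1 was higher by 1 or more at 215 of 22746 probe sets (0.945%) and lower by as much at 134 (0.589%). Among locus-coded probe sets 62 were higher by that amount (0.52%). Of these 62, 6 dropped out because the OsRR6ox arrays differed by 1 or more, and 5 because the genotypes lay too far apart. The members just inside the limit were AT1G09500, AT4G22490 and AT3G20510, with wild type differences of 1.00, 1.01 and 1.01. Just outside it stood AT2G43590, AT1G55265 and AT3G62590, each at 0.99, so the boundary of the set is arbitrary at that scale. Of the 51 genes, 50 are annotated as protein-coding, and AT2G04460 is a pseudogene.

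The wild type difference ranged from 1.00 to 3.14 over the 51 genes, with a median of 1.15 or 2.21-fold, against a median of 0.03 over all probe sets tested. Only AT5G10770, AT1G62760 and AT5G39520 exceeded 4-fold, and 31 of the 51 lay under 1.2. The wild type SD of a member had a median of 0.81, and its OsRR6ox SD a median of 0.22 (log2, n = 2 each). Over all probe sets the median wild type SD was 0.13. Both contrasts follow from the rule, which set a floor to the wild type difference and a ceiling to the OsRR6ox difference. By level the genes had a median at the 46.0th percentile of all probe sets by mean over the arrays. On wild type replicate 1 none lay at array background, taken as the lowest 25% of probe sets, and 45 lay above it on all 4 arrays.

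**Figure D1:**
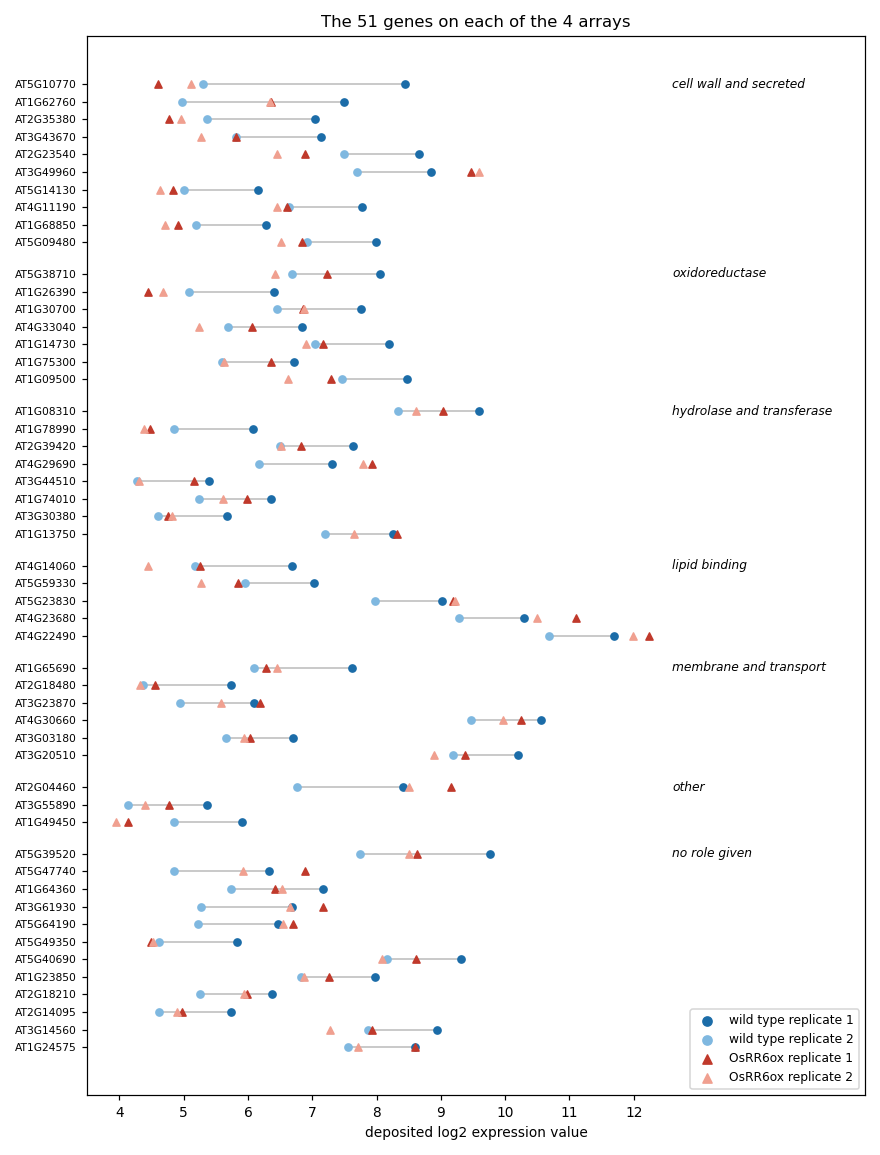
Deposited log2 expression value (horizontal axis) of each of the 51 genes (rows, grouped by role) on the 4 arrays, with circles for the wild type, triangles for OsRR6ox and a grey line joining the wild type replicates. Wild type replicate 1 is the highest of the 4 points in 39 rows, and in 13 rows both triangles lie below both circles.

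The OsRR6ox arrays took different places beside the wild type pair. In 30 genes both lay nearer to wild type replicate 2, in 12 both lay nearer to replicate 1, and in 9 they were split. Wild type replicate 1 was the highest of the 4 arrays in 39 genes, and replicate 2 was the lowest in 29. Both OsRR6ox arrays lay between the wild type arrays in 17 genes, below both in 13 and above both in 7. In another 9 genes 1 OsRR6ox array lay between the wild type arrays and the other below, and in 5 genes 1 lay between and the other above. The genotypes thus did not overlap in 20 of the 51, against 46.1% of all probe sets in either direction. The limits that chose the genes shape these arrangements, so the counts are a description. The plot of all 51 genes by array shows these arrangements side by side.

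Genes for cell wall and secreted proteins, 10 in number, included the 2 widest wild type differences. AT5G10770, which encodes an aspartyl protease-like protein, read 8.45 and 5.30 in the wild type against 4.60 and 5.11 in OsRR6ox. It was thus high on wild type replicate 1 alone, by 3.14 or 8.84-fold over replicate 2 and by 3.59 over the OsRR6ox mean. AT1G62760, of the family of invertase and pectin methylesterase inhibitors, read 7.49 and 4.97 in the wild type against 6.35 and 6.34 in OsRR6ox. Its OsRR6ox arrays were 0.01 apart and lay between the wild type arrays. A second probe set of AT1G62760 read 3.77 and 3.62 in the wild type against 3.54 and 3.77 in OsRR6ox, all at array background, so it did not show the difference. Which of these probe sets reports the gene could not be settled.

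The set holds 4 class III peroxidases. AT2G35380 read 7.04 and 5.36 in the wild type against 4.78 and 4.95 in OsRR6ox. AT5G14130 read 6.16 and 5.01 against 4.84 and 4.63, and AT1G68850 read 6.29 and 5.19 against 4.90 and 4.71. In these 3 genes both OsRR6ox arrays lay below both wild type arrays, close to wild type replicate 2. AT3G49960 had the opposite arrangement, at 8.84 and 7.69 in the wild type against 9.47 and 9.59 in OsRR6ox. Its OsRR6ox arrays lay above both wild type arrays, and wild type replicate 2 was the low array of the 4.

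The other 4 secreted or wall-linked genes also had a lower mean in OsRR6ox. The copper amine oxidase gene AT3G43670, whose enzyme releases hydrogen peroxide, read 7.14 and 5.81 in the wild type against 5.81 and 5.27 in OsRR6ox. AT2G23540, a GDSL-type esterase and lipase gene, read 8.66 and 7.50 against 6.89 and 6.45. AT4G11190 encodes a dirigent-like protein, of a class that guides the coupling of lignan precursors, and read 7.77 and 6.63 against 6.60 and 6.46. AT5G09480, a hydroxyproline-rich glycoprotein gene, read 7.99 and 6.92 against 6.83 and 6.52. In 9 of the 10 genes of this group wild type replicate 1 was the highest array, against 39 of all 51 genes. Both OsRR6ox arrays lay below both wild type arrays in 7 of the 10, against 13 of the 51. Over all probe sets the genotypes did not overlap, in either direction, in 46.1%. The group was formed after the values were seen and is part of the 51, so these counts are a description.

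Oxidoreductase genes, 7 in number, all had wild type replicate 1 as the highest array and a lower mean in OsRR6ox, with mean differences of -1.19 to -0.16. Among all 51 genes replicate 1 was the highest array in 39, and the OsRR6ox mean was lower in 35. Both traits lean on the wild type values that chose the genes, and this group too was formed after the values were seen. These counts are therefore a description. The berberine bridge enzyme-like genes AT1G26390 and AT1G30700 differed between the wild type arrays by an equal 1.32. AT1G26390 read 6.40 and 5.08 in the wild type against 4.44 and 4.67 in OsRR6ox, and AT1G30700 read 7.76 and 6.44 against 6.85 and 6.87. The OsRR6ox arrays thus lay below both wild type arrays in the first, with OsRR6ox replicate 1 at array background, and between them in the second. AT5G38710 encodes a proline dehydrogenase, the mitochondrial enzyme that begins proline breakdown. It read 8.05 and 6.68 in the wild type against 7.22 and 6.41 in OsRR6ox, a difference of 0.81 between the latter.

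The glutaredoxin gene AT4G33040 read 6.84 and 5.69 in the wild type against 6.06 and 5.23 in OsRR6ox, so it too was higher in replicate 1 of both genotypes. AT1G75300, of the NmrA-like relatives of isoflavone reductase, read 6.71 and 5.60 against 6.35 and 5.63, with replicate 2 nearly equal in the genotypes. The cytochrome b561-type gene AT1G14730 read 8.19 and 7.05 against 7.17 and 6.90. AT1G09500, an alcohol dehydrogenase-like gene, read 8.47 and 7.46 against 7.29 and 6.62. In these 4 genes replicate 1 was above replicate 2 in both genotypes.

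Hydrolase and transferase genes, 8 in number, had wild type differences of 1.05 to 1.26. The alpha/beta hydrolase gene AT1G08310 read 9.59 and 8.33 in the wild type against 9.03 and 8.61 in OsRR6ox, and AT2G39420 read 7.64 and 6.50 against 6.83 and 6.52. The dimmer genes of that type, AT3G44510 and AT3G30380, differed by 1.12 and 1.07, the former with replicate 2 of both genotypes at array background. A second probe set of AT3G44510 differed by 0.90 in the same direction. AT1G74010, a strictosidine synthase-like gene, read 6.36 and 5.24 against 5.98 and 5.61, so that the genotype means were 0.00 apart.

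In the BAHD acyltransferase gene AT1G78990 the OsRR6ox arrays, at 4.47 and 4.39, lay below wild type values of 6.08 and 4.85, and OsRR6ox replicate 2 was at array background. The phosphodiesterase gene AT4G29690, of the nucleotide pyrophosphatase type, went the other way, with 7.30 and 6.17 in the wild type against 7.93 and 7.78 in OsRR6ox. The purple acid phosphatase gene AT1G13750 read 8.25 and 7.20 against 8.32 and 7.65. For these last 2 genes wild type replicate 2 was the lowest array.

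Genes for lipid-binding proteins, 5 in number, included the most abundant of the 51. AT4G22490, of the lipid transfer protein class, read 11.69 and 10.68 in the wild type against 12.23 and 11.99 in OsRR6ox. The major latex protein-like gene AT4G23680 read 10.30 and 9.28 against 11.10 and 10.49, and AT5G23830, with an ML lipid-recognition domain, 9.02 and 7.98 against 9.19 and 9.23. In these 3 genes both OsRR6ox arrays lay above both wild type arrays, with gaps of no more than 0.30 to the nearer wild type array. Their relatives AT4G14060 and AT5G59330 were arranged otherwise. AT4G14060, also major latex protein-like, read 6.68 and 5.18 in the wild type against 5.26 and 4.45 in OsRR6ox, and AT5G59330, lipid transfer protein-like, 7.03 and 5.95 against 5.84 and 5.27. Neither protein class thus showed 1 common arrangement of the 4 arrays.

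Genes for membrane and transport proteins, 6 in number, differed by 1.01 to 1.53 between the wild type arrays. AT1G65690, of the NDR1/HIN1-like family that includes defence-linked membrane proteins, read 7.61 and 6.09 in the wild type against 6.28 and 6.45 in OsRR6ox. The polyol transporter-like gene AT2G18480 read 5.73 and 4.36 against 4.55 and 4.32, with wild type replicate 2 and OsRR6ox replicate 2 at array background. The RCI2-like gene AT4G30660, whose family of small membrane proteins is known from cold and salt stress, read 10.56 and 9.47 against 10.24 and 9.96. In 5 of these 6 genes wild type replicate 1 was the highest array, against 39 of all 51 genes. The NIPA-type transporter gene AT3G23870 was the exception, at 6.09 and 4.94 in the wild type against 6.19 and 5.59 in OsRR6ox. The Got1-like vesicle transport gene AT3G03180 and the TMEM14-type gene AT3G20510 differed by 1.05 and 1.01.

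Among the remaining genes, the pseudogene AT2G04460 read 8.42 and 6.76 in the wild type against 9.16 and 8.51 in OsRR6ox, where wild type replicate 2 stood apart as the low array. AT1G49450, a WD40-repeat gene, read 5.91 and 4.85 in the wild type, with both OsRR6ox arrays at array background and a genotype difference of -1.34. The Yippee-like gene AT3G55890 differed by 1.24 between the wild type arrays, with replicate 2 of both genotypes at array background. Of the 12 genes given no role, AT5G39520 had the widest wild type difference, 2.02, and read 9.76 and 7.74 against 8.63 and 8.51. Its OsRR6ox arrays lay between the wild type arrays, as for AT1G62760.

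The other 11 without a role were AT5G47740, AT1G64360, AT3G61930, AT5G64190, AT5G49350, AT5G40690, AT1G23850, AT2G18210, AT2G14095, AT3G14560 and AT1G24575. They differed by 1.03 to 1.47 between the wild type arrays. AT5G47740 read 6.32 and 4.85 in the wild type against 6.88 and 5.92 in OsRR6ox, the widest OsRR6ox replicate difference of the 51 at 0.97. AT3G61930 read 6.68 and 5.27 against 7.16 and 6.65, and AT5G64190 read 6.46 and 5.21 against 6.70 and 6.55. In these 3 genes wild type replicate 2 was the lowest array.

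The sign of the OsRR6ox replicate difference was not used to choose the genes. OsRR6ox replicate 1 was above replicate 2 in 41 of the 51 (80.4%), with a median difference of 0.28. Over all locus-coded probe sets it was above in 58.1%, with a median of 0.04, and over all probe sets tested in 56.3%. It was above by 0.5 or more in 17 of the 51 and below by as much only in AT5G10770, against 3.84% and 3.44% of all probe sets. Among the 117 other probe sets that met the same numeric limits under a symbol, several genes or no name, OsRR6ox replicate 1 was above replicate 2 in 96 (82.1%).

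The mirror image of the rule, with wild type replicate 2 higher by 1 or more, gave 47 locus-coded probe sets, and there OsRR6ox replicate 1 was above replicate 2 in 14 (29.8%), with a median difference of -0.23. Genes higher in a given wild type replicate were thus more often higher in the OsRR6ox replicate of the same number. Across all 22746 probe sets the replicate differences of the genotypes had a Pearson's r of 0.26, given as a description, since probe sets of an array share its RNA and scaling. These differences come from separate arrays in each genotype. Of the 7 genes with a wild type difference of 1.5 or more, 4 had OsRR6ox replicate 1 above replicate 2, and the 3 exceptions were AT5G10770, AT2G35380 and AT1G65690. The sources used here do not say whether a shared number marks a shared day or batch, and its part in these differences was not tested.

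**Figure D2:**
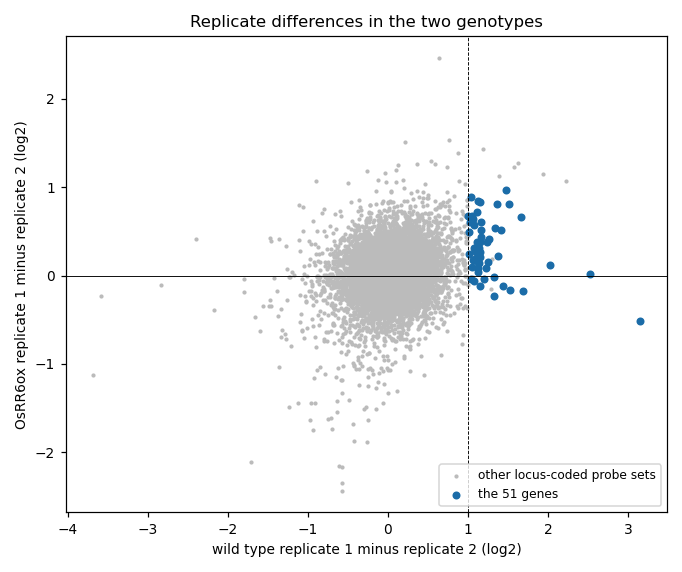
Replicate 1 minus replicate 2 on the log2 scale in the wild type (horizontal axis) and in OsRR6ox (vertical axis) for locus-coded probe sets, with the 51 genes in blue and all others in grey, and a dashed line at the wild type limit of 1. Of the blue points 41 lie above the horizontal zero line and 10 below it.

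The class III peroxidase and berberine bridge enzyme-like families were followed over all their measured genes, as lists drawn up after the values had been seen and because they hold members. Other families with more than 1 member were not followed in this way. Of 73 class III peroxidase genes, 55 could be matched to a probe set of their own. Wild type replicate 1 was above replicate 2 in 41 of the 55, against 54.9% of all probe sets, with a median difference of 0.27. The 4 members are in this count and the next through the rule that chose them, so both are a description. Replicate 1 was higher by 1 or more in 6 and replicate 2 in 0, against 0.945% and 0.589% of all probe sets. Besides the 4 members these were PRX52, at 7.61 and 5.06 in the wild type against 6.06 and 5.70 in OsRR6ox, and AT1G34510, at 7.63 and 6.35 against 9.05 and 9.20. PRX52 met the numeric limits but carries a symbol, and AT1G34510 lay too far apart between genotypes. OsRR6ox replicate 1 was above replicate 2 in 29 of the 55, with a median of 0.05. The left-out peroxidases AT5G17820, AT4G11290 and AT3G01190 differed by 0.62, 0.59 and -0.10 between the wild type arrays.

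Of 27 berberine bridge enzyme-like genes 22 were measured. Wild type replicate 1 was above replicate 2 in 14 of the 22, against 54.9% of all probe sets, with a family median of 0.12. It was higher by 1 or more in 3, against 0.945% of all probe sets, and 2 of the 3 are members by the rule. Both counts are thus a description. The third, AT2G34810, had the widest difference of the family, at 7.51 and 5.58 in the wild type against 8.76 and 7.61 in OsRR6ox, and dropped out because its OsRR6ox arrays differed by 1.15. AT1G26380, next to AT1G26390 on its chromosome, read 8.01 and 7.06 against 6.60 and 6.48. In the same run of loci AT1G26400, AT1G26410 and AT1G26420 differed by 0.12, 0.22 and 0.71, the first of them at array background throughout.

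**Figure D3:**
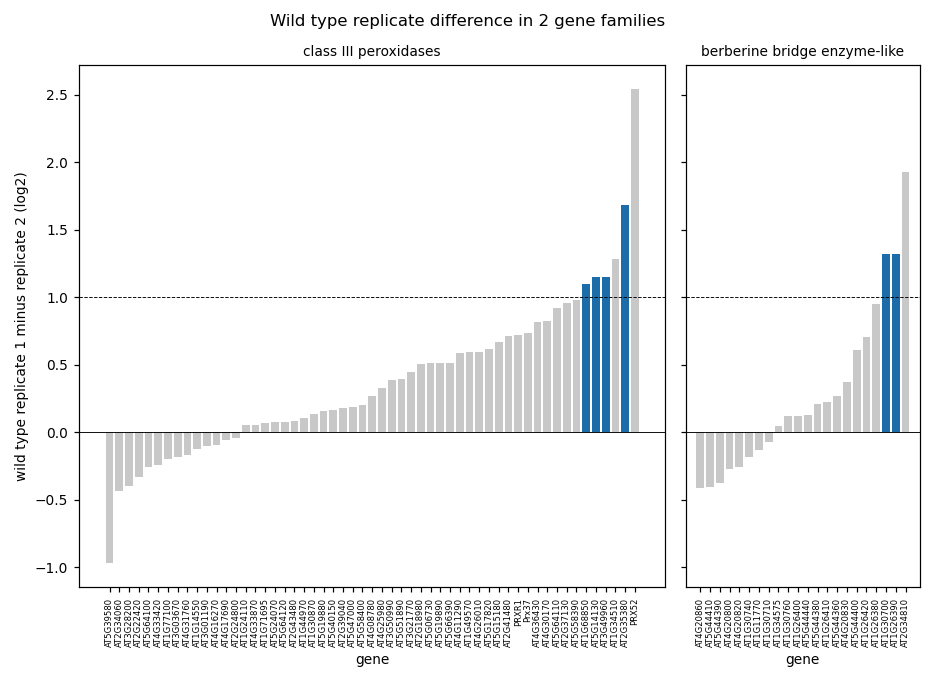
Wild type replicate 1 minus replicate 2 on the log2 scale (vertical axis, bars) for each measured gene of the class III peroxidase family (left, 55 genes) and the berberine bridge enzyme-like family (right, 22 genes), with the genes of the 51 in blue and a dashed line at 1. The peroxidase bars run from -0.97 to 2.55 and those of the other family from -0.42 to 1.93.

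The 51 genes were spread over the nuclear chromosomes much as locus-coded probe sets are, with 31.4% on chromosome 1 against 26.0%, and 13.7% on chromosome 4 against 14.4%. None of them lay within 2 protein-coding genes of another. Of 92 measured neighbours within that distance, 0 were higher in wild type replicate 1 by 1 or more, 12 were by 0.5 or more and 54 by any amount, with a median of 0.06. Higher in replicate 2 by 0.5 or more were 3. Over all probe sets replicate 1 was above replicate 2 in 54.9%, and by 1 or more in 0.945%. The share of all probe sets past 0.5 in the wild type was not counted, so the neighbour counts at 0.5 stand without a comparison. The highest were AT4G30670 at 0.96 and AT4G30650 at 0.86, on either side of AT4G30660, and AT1G26380 at 0.95. AT4G30650 is an RCI2-like relative of its neighbour and read 8.93 and 8.06 in the wild type against 8.93 and 8.75 in OsRR6ox.

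The pathway and cell type lists, with 282 genes in 23 lists, held none of the 51 genes. Only 45 list genes could be matched to a probe set of their own. Of these, 23 were higher in wild type replicate 1, against 54.9% of all probe sets. The annotation leaves 8730 of the 22746 probe sets unnamed, so a list gene that was not matched may still be on the array. The single one higher by 1 or more was BGLU28, a sulfur starvation gene, at 8.01 and 6.48 in the wild type against 7.41 and 6.44 in OsRR6ox. Higher in replicate 2 by as much were 3 of the 5 measured genes of the iron deficiency response. The other two, F6H1 and S8H, which act in coumarin synthesis, were higher in replicate 1, by 0.40 and 0.13. The bHLH regulator gene BHLH101 read 5.19 and 9.47 in the wild type against 9.56 and 10.41 in OsRR6ox, PYE 6.71 and 7.98 against 7.99 and 7.98, and AT1G47400, which encodes an IRONMAN signalling peptide, 7.57 and 11.15 against 11.00 and 11.23. Wild type replicate 1 was thus the low array for these 3 iron genes while it was the high array for most of the 51. The 4 measured cold and dehydration genes COR15B, LTI30, COR47 and COR15A differed by 0.95, 0.83, 0.73 and 0.08, wild type replicate 1 minus replicate 2.

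Few markers of the organs and tissues of a seedling could be matched to a probe set of their own, and only those are called measured here. Of 17 root hair and root epidermis genes 2 were measured, EXPA7 and EXPA18, both higher in wild type replicate 1, and their summed level (log2 of the summed linear values) was 8.36 and 7.95 in the wild type against 9.31 and 9.50 in OsRR6ox. Of 10 genes of the root cortex and other root tissue 4 were measured, 2 of them higher in wild type replicate 1. Their summed level was 13.30 and 13.26 in the wild type and lower in OsRR6ox. That sum follows mainly PYK10, the brightest of the 4, and the genes did not move together. By OsRR6ox mean minus wild type mean, AT4G28100 was higher by 1.01, while AT5G47980, AT1G09750 and PYK10 differed by -2.39, -0.25 and -0.21. The root hair and root cortex sums were both lower in OsRR6ox replicate 1 than in replicate 2. Of 14 endodermis and suberin genes 0 were matched in the annotation, as of 10 vascular genes, so these tissues could not be followed. RCA, the rubisco activase gene, was the one measured of 19 photosynthesis genes of the shoot and read 13.78 and 14.05 against 13.41 and 13.68. Of 13 seed genes 4 were measured, 2 of them at array background throughout, with sums of 7.03 and 6.80 against 6.63 and 6.34. The 5 of 8 anther and pollen genes measured lay at array background on all 4 arrays. In bulk seedlings more cells of a type and more RNA per cell cannot be told apart, and the part of organ proportions in the wild type difference was not tested.

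Between genotypes 0 of the 51 genes passed (limma, Benjamini-Hochberg adjusted p under 0.05), against 1.3% of all probe sets (0.813% higher and 0.488% lower in OsRR6ox), which is a consequence of the limits that chose them. At an unadjusted p under 0.05 there were 9, against 15.0%, and the arrays did not overlap between genotypes in 20, against 46.1%. The OsRR6ox mean was below the wild type mean in 35 of the 51 (68.6%), against 57.7% of all probe sets, and above it in 16. The median difference was -0.34, against -0.04 over all probe sets. The wild type mean holds the values that chose the genes, so this share and this median are a description. That median moved with each array, being 0.28 without wild type replicate 1, -0.97 without wild type replicate 2, -0.52 without OsRR6ox replicate 1 and -0.15 without OsRR6ox replicate 2. The lowest difference was that of AT5G10770, at -2.02, and the highest that of AT3G49960, at 1.26. Of the 45 measured genes of the pathway and cell type lists, EXPA7 rose and AT5G47980 fell at the same threshold. Of the 55 measured class III peroxidases, AT1G30870 rose and the left-out AT3G01190 fell. Of the 22 measured berberine bridge enzyme-like genes 0 rose and 0 fell.

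Genes with a symbol that met the same numeric limits numbered 16. PRX52 led them with a difference of 2.55 between the wild type arrays, followed by the transporter gene OCT1, at 8.35 and 6.05 in the wild type against 9.26 and 8.51 in OsRR6ox, and SAG29, a SWEET-type transporter gene of senescing tissue, at 7.94 and 5.78 against 7.83 and 7.66. The thionin gene THI2.1, a defence gene named after its values were seen, read 6.15 and 4.32 against 5.25 and 4.71. In OCT1 and SAG29 wild type replicate 2 was the low array, and in THI2.1 the OsRR6ox arrays lay between those of the wild type. A further 99 probe sets that met the limits are unnamed here, so the 51 genes are a part of all transcripts with this pattern.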

How the data were processed

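The values used were log2 expression values as deposited by the authors, for 22810 probe sets on each of 4 arrays. Per the labels' protocols, total RNA extracted with Trizol was labelled with biotin through the 3′ IVT protocol of Affymetrix. The submitters' processing notes name R 3.4.0. The method of background correction, summarisation and normalization is not stated there. A scaling that differs between arrays would move a replicate difference directly.

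After removal of 64 array controls, 22746 probe sets remained. The platform annotation gives a single gene for 13513, several for 503 and none for 8730, and 13436 of the first matched the TAIR10.1 reference table by gene identifier. Whether a gene has a symbol or only a locus code was read from that table, and from the platform annotation where no match was found. Members and lists were chosen with earlier results of these data known. Product groups planned for the genes could not be matched, since the table holds no product names, so families were assigned from background knowledge after the values were seen. All members are therefore named, beyond the planned rule of the 20 widest differences, list genes, adjacent members and genes nearest the limit. In lists the brightest probe set stood for a gene.

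Genotypes were compared with limma 3.58.1 under R 4.3.3 (linear model with moderated variance, two-sided, Benjamini-Hochberg over 22746 probe sets, threshold 0.05), a fit checked on simulated data. Nothing says that replicates came from separate cultures beyond the label of biological replicate, so the p-values reflect only how these samples scatter. With 2 arrays per genotype precision is limited, and the residual SD had a median of 0.15. Alternatives were other scalings, filters, variance models, limits of the rule, a replicate block and leaving out each array.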

Additional observations from a re-analysis of the deposited data

How the results depend on the processing

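The 51 genes depend on scaling. Quantile normalization kept 41 and median centring 37, all among the 51, and none of the 51 had a wild type difference under 0.91 in either. Spike-in centring, which rests on controls that themselves differed between the wild type arrays, gave 244 genes, 49 of the 51 among them, raised the median wild type difference to 1.48 and turned the median OsRR6ox difference to 0.19. It gave 765 probe sets higher by 1 or more in wild type replicate 1, in place of 215. A limit of 1.5 left 7 genes and required overlap 31. OsRR6ox replicate 1 stayed above replicate 2 in 40 of the 51 under each of the 3 scalings, a check chosen after seeing the data, against 52.5% to 54.3% of locus-coded probe sets. Without 1 array, the median OsRR6ox difference ran from -0.97 to 0.28. Over all probe sets, calls between genotypes went from 296 to 492 with median centring and 3013 with spike-in centring (2863 rises, against 185 of 296), and ran from 45 to 465 without 1 array. With the replicate number as a block there were 105. The replicate differences correlated at 0.26 across probe sets, and with 2 pairs and no label on it, whether a number marks a shared batch was not tested. Quantile normalization, leaving out dim probe sets and other variance models left the number of calls within 1.5 times of 296.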
